A study of Mus musculus with 3 samples.

Results

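The genes described here are 48 genes of the mitotic machinery, chosen by name for their roles in cyclin-dependent kinase activity, the spindle checkpoint, the kinetochore, spindle motors, cytokinesis and chromosome condensation. All 48 were listed among the 22238 genes common to the 3 RNA-Seq libraries of the study, and none was left out. The study compared monocytes before and after they entered the spinal cord, and then with the antigen-presenting cells (APCs) that they give rise to, in mice with experimental autoimmune encephalomyelitis (EAE), a model of multiple sclerosis. EAE was induced in female C57BL/6J mice, labelled WT and 10 to 12 weeks old, by subcutaneous myelin oligodendrocyte glycoprotein peptide in complete Freund's adjuvant, with 250 ng of pertussis toxin 2 and 24 hours later. All 3 populations came from immunized mice at days 14 to 15, and no unimmunized group was analysed here. Bone marrow (BM) monocytes were sorted as CD45+ CD11b+ Ly6Chi Ly6G- CD11c- cells from 13 mice pooled over 2 experiments. Spinal cord (SC) monocytes, sorted as CD45hi CD11b+ CD64+ Ly6G- Ly6Chi cells, and monocyte-derived APCs, sorted likewise but as Ly6Clow/- cells, came from 18 mice pooled over 3 experiments. The APC population is thus defined by surface markers and not by lineage tracing, and a source label of that library names the bone marrow whereas its title and tissue label name the spinal cord. The libraries held 33280643 estimated reads for BM monocytes, 27283795 for SC monocytes and 28209589 for APCs.

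Each population was 1 pooled library, so no difference has a replicate check, no p-value is given, and every interval covers counting error only, in which PCR copies count as if they were independent molecules. Levels are given as TPM, the length-corrected share of a gene in all transcripts, rescaled to the same sum over the common genes and given with a 95% Wilson interval. Fold changes are on the reads, as the median log2 ratio with a 98% interval between percentiles 1 and 99. A gene was called lower or higher if the whole interval was outside a 2-fold change and its TPM passed 3 in either library of the pair, and a gene that did so is termed active. The deposited APC values covered another set of transcripts, 22242 genes against 54432 for both monocyte libraries. The effective length of a gene, to which its reads are proportional, differed by over 1.5-fold between APCs and SC monocytes for 8 of the 48 genes, and between both monocyte libraries, which share 1 set, for 4.

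In mitosis, cyclin-dependent kinase 1 with its cyclins starts entry into division, condensins and topoisomerase II compact and untangle the chromosomes, and kinesin motors and microtubule bundlers build the spindle. Kinetochores, assembled on centromeric chromatin, hold the chromosomes to microtubules, and the spindle checkpoint restrains the anaphase-promoting complex until every chromosome is attached. That complex then marks securin and the B cyclins for destruction, separase cuts cohesin, and the contractile ring divides the cell. Transcripts of these genes peak in the G2 and M phases and are scarce in cells that are not dividing. In the bone marrow, monocytes arise from cycling progenitors.

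The 48 genes were expressed at 6.02 to 189.7 TPM in BM monocytes, with a median of 38.5 TPM, and each was over 3 TPM. In SC monocytes the range was 0.405 to 35.6 TPM with a median of 3.21 TPM, and in APCs it was 0.538 to 33.5 TPM with a median of 3.70 TPM. Summed over the genes, the level was 2312 TPM in BM monocytes, 256.0 TPM in SC monocytes and 283.8 TPM in APCs. The spinal cord populations thus held 11.1% and 12.3% of the summed bone marrow level. Mitotic transcripts were detected in all 3 libraries, since every gene had reads in each, the fewest being the 16 reads of Cenpk, a constitutive centromere protein, in SC monocytes. In a bulk library, fewer dividing cells and less mitotic RNA per cell cannot be told apart.

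**Figure D1:**
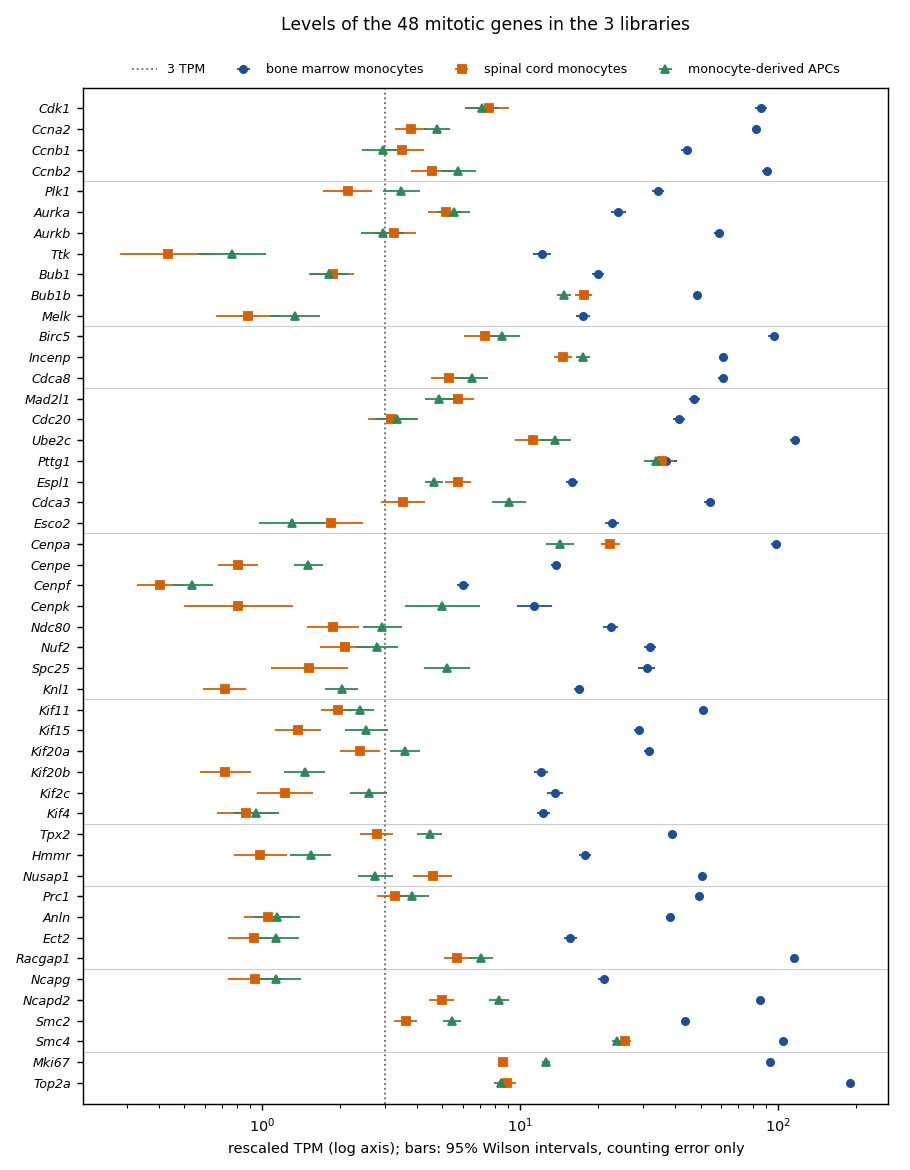
Level of each of the 48 genes in the 3 libraries, in rescaled TPM on a log axis, ordered by role with grey lines between role groups, with 95% Wilson intervals as bars (counting error only) and 1 pooled library per population. The bone marrow points lie to the right of both spinal cord points for every gene but Pttg1, whose 3 points overlap at 33.5 to 36.7 TPM.

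In SC monocytes against BM monocytes, 47 of the 48 genes were called lower and 0 were called higher. Of the 10072 active genes in that comparison, 11.0% were called lower and 13.6% higher. The median log2 fold change over the 48 genes was -3.58, with a range from -4.49 for Anln to 0.25 for Pttg1 and an SD between genes of 0.90. The median over all active genes was -0.17. In terms of TPM, 10 genes kept under 5% of their bone marrow level, 30 genes kept 5 to 10%, Mad2l1 kept 12.2%, 6 genes kept 20 to 40% and Pttg1 kept 96.8%. The 6 genes with the intermediate loss were Aurka, Bub1b, Incenp, Espl1, Cenpa and Smc4, which fall in 5 different role groups. If libraries were assumed to vary with a coefficient of variation of 0.4, 39 genes were still called lower, beside 2.26% of all active genes.

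**Figure D2:**
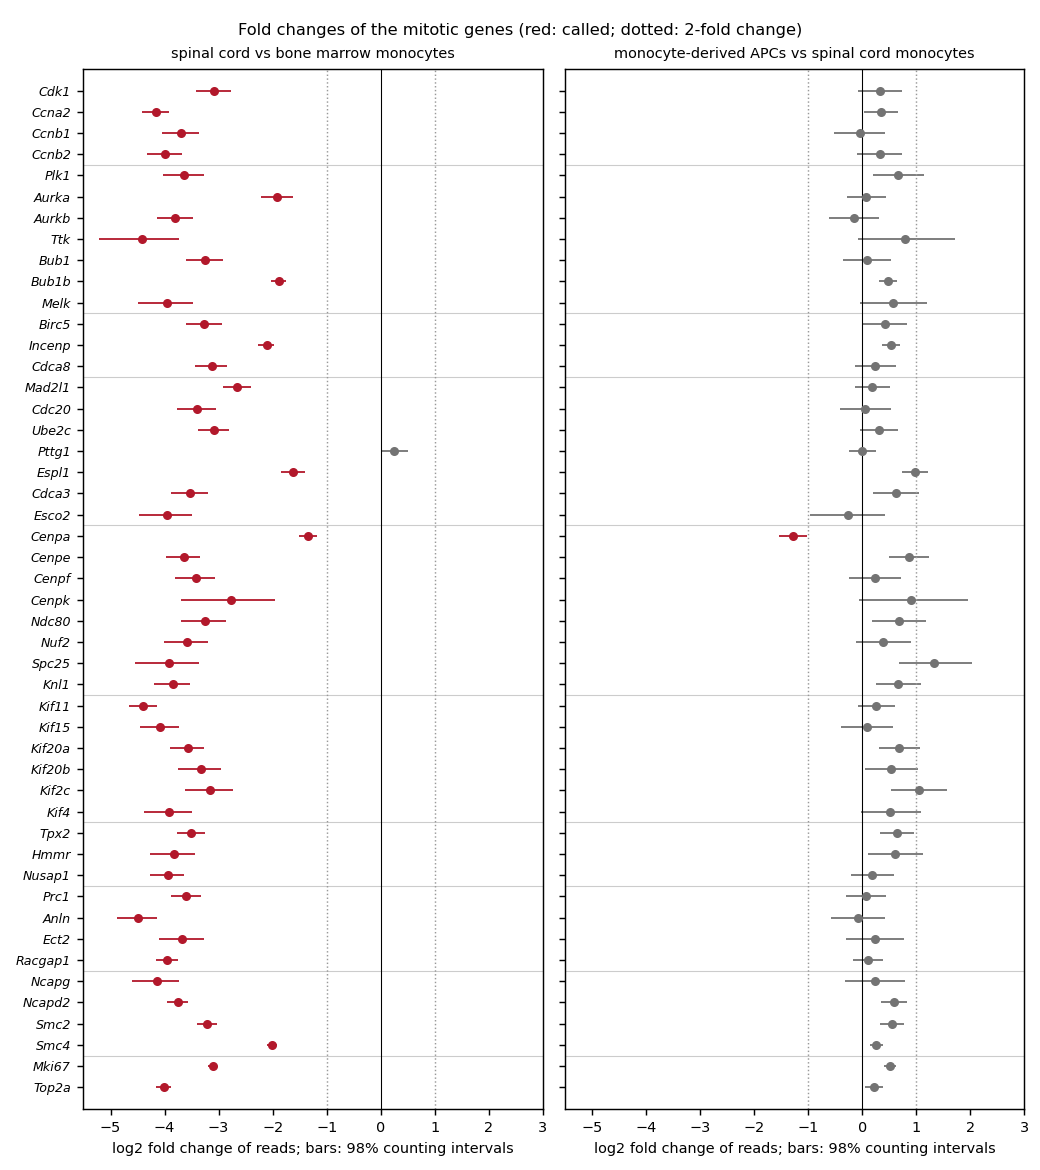
Log2 fold change of reads for each of the 48 genes, in SC monocytes against BM monocytes on the left and in APCs against SC monocytes on the right, with 98% counting intervals as bars, called genes in red and a 2-fold change as dotted lines. On the left 47 genes are called lower with a median of -3.58, and on the right 1 gene, Cenpa, is called lower and the median is 0.34.

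The genes also had promoter motifs in common. Of the 48 genes, 41 matched a gene start in the RefSeq table of build GRCm38.p6, with 45 promoters of 250 bases before to 50 bases after the start. Many promoters of G2 and M phase genes are known to carry a cell cycle genes homology region (CHR), the site of the DREAM and MuvB complexes, near the start, and CCAAT boxes, bound by NF-Y, upstream of it. The CHR was searched as TTTGAA or TTCGAA and the box as CCAAT, each on both strands and with overlaps counted. A CHR match was present in 34 of the 45 promoters (75.6%), against 19.2% of all 32851 promoters of the table and 14.4% of the 10415 promoters of genes over 3 TPM in any of the libraries. A CCAAT match was present in 73.3%, against 37.4% of all promoters and 37.8% of those of expressed genes, and at least 2 matches were present in 46.7%, against 11.7% and 14.7%. Both motifs together were found in 62.2% of the promoters of the mitotic genes, against 7.52% of all promoters and 5.98% of those of expressed genes. An E2F site, searched as TTCCCGC or TTGGCGC on both strands, was found in 20.0%, against 6.81% and 12.3%. The shares are descriptions of these windows, the genes being chosen for their function, and a match is not a bound site.

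The windows of 4 genes are printed below from 5′ to 3′ on the strand of the gene, with each CHR and CCAAT match, on either strand, in capitals, so that TTCAAA is a CHR and ATTGG a box read on the opposite strand. The 4 genes had the highest BM monocyte levels among those with a CHR match and at least 2 CCAAT matches. Both motifs were thus present in the printed windows by choice. Racgap1 (1 CCAAT match) and Birc5 (neither motif) had higher levels in BM monocytes than Mki67 and were passed over. Smc4, at 104.5 TPM, was higher as well but was not matched to a gene start. Top2a and Ube2c had the highest levels of all 48 genes in BM monocytes. Mki67 is the usual marker of proliferating cells, and Cenpa was the gene called lower at both steps. In 7 of the 45 promoters the RefSeq start was so far inside the gene as GENCODE annotates it that the whole window was within the gene, and these were the only windows for Cdca3, Cdca8, Kif2c, Kif4 and Pttg1. The Pttg1 start used was 270 bases inside the gene, so that the sequence before its annotated 5′ end was not searched and its window is not printed. Top2a (chr11:99024140-99024439, minus strand) held 4 CHR and 6 CCAAT matches, Ube2c (chr2:164769679-164769978, plus strand) held 1 and 6, Mki67 (chr7:135716330-135716629, minus strand) held 2 and 3, and Cenpa (chr5:30666636-30666935, plus strand) held 1 and 2.
Top2a: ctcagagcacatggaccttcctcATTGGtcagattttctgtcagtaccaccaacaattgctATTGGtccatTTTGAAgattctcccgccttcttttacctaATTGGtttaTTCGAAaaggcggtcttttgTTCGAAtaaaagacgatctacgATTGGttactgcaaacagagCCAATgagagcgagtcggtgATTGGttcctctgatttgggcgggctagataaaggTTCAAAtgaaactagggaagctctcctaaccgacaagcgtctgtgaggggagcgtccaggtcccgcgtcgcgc
Ube2c: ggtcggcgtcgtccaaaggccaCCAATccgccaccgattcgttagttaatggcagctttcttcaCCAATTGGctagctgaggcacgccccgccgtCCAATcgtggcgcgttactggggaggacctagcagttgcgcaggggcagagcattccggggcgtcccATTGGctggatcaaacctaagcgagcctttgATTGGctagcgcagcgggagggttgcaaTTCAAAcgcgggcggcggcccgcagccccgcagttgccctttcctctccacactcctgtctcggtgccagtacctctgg
Mki67: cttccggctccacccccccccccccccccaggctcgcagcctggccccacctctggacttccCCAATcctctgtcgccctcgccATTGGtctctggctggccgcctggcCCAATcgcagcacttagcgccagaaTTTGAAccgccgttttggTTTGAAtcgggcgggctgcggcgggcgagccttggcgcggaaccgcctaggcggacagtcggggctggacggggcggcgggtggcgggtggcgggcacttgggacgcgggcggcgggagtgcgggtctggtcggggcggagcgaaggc
Cenpa: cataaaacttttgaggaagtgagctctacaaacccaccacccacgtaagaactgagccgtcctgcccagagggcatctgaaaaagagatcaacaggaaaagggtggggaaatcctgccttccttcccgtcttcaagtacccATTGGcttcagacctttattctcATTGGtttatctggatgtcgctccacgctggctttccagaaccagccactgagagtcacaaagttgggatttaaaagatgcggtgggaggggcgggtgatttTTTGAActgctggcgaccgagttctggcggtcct

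In the Ube2c window a stretch of capitals reads as a box on both strands at once, and the overlapping matches were counted separately. Over the promoters of the mitotic genes, the 47 CHR matches had a median centre at -2.0 bases from the start, with 36 of them between 100 bases before and 50 bases after it. The 74 CCAAT matches had a median centre at -68.5 bases, with 49 of them in the same stretch. By gene, the 32 with a CHR match were each called lower in SC monocytes, with a median log2 fold change of -3.56. Of the 9 without a match, 8 were called lower, with a median of -3.59. Without the 5 genes whose only windows were within the gene, 28 of 28 genes with a CHR match and 8 of 8 without were called lower, both with a median of -3.62.

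**Figure D3:**
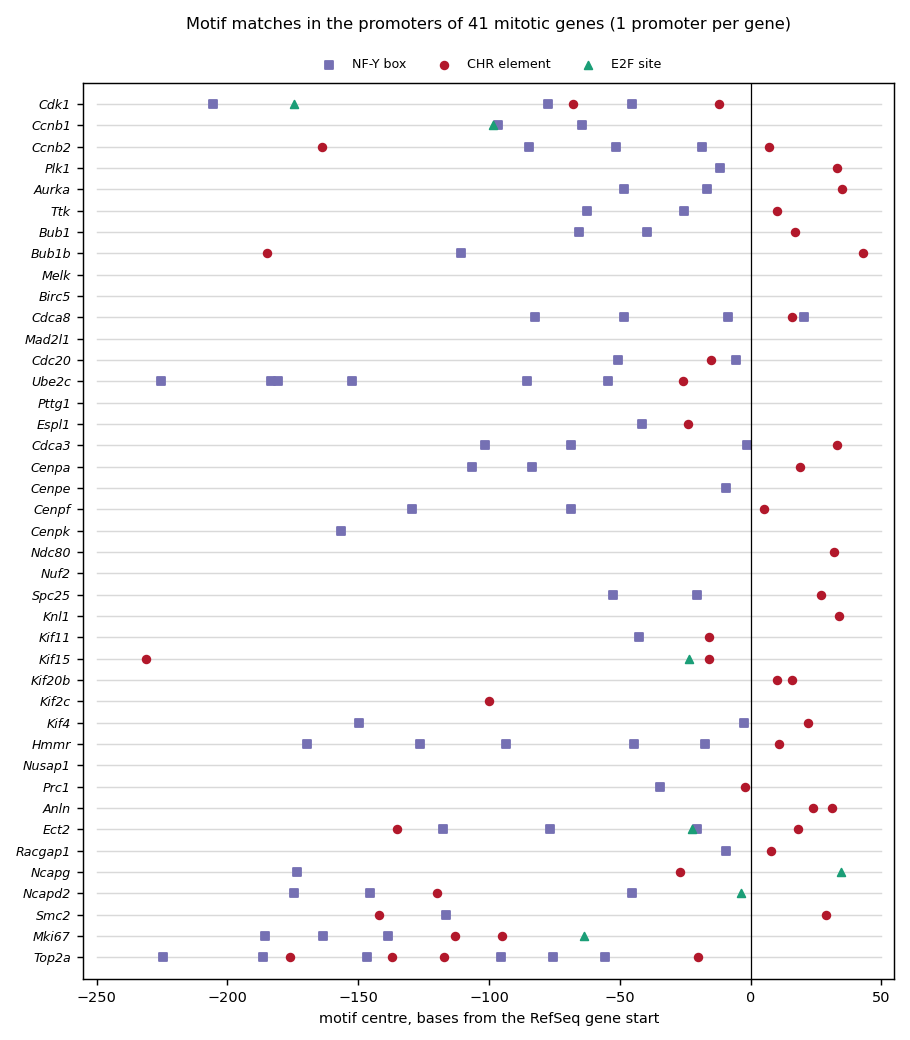
Positions of CHR elements (red circles), NF-Y boxes (CCAAT matches, purple squares) and E2F sites (green triangles) in 1 promoter of each of the 41 matched genes, in bases from the RefSeq start, from 250 before to 50 after it. The CHR matches gather around the start and the boxes upstream, whereas 6 genes have neither. Over all 45 promoters, including those not shown, the median centres are at -2.0 bases for CHR matches and -68.5 bases for boxes. For Cdca3, Cdca8, Kif2c, Kif4 and Pttg1 the whole window is within the annotated gene.

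Cdk1 and its cyclins were low in both SC populations, which held 6.41% (monocytes) and 6.82% (APCs) of the summed bone marrow level. Cdk1, the kinase that drives entry into mitosis, was at 86.0 TPM in BM monocytes, 7.56 TPM in SC monocytes and 7.13 TPM in APCs. Ccna2, cyclin A2, which acts in S phase and early mitosis, was at 81.8, 3.77 and 4.77 TPM in the same order. The B cyclins that activate Cdk1 followed, with Ccnb1 at 44.2, 3.49 and 2.95 TPM. The bone marrow library was the high one in each case, and the log2 fold changes of the 4 genes between the monocyte libraries ran from -4.16 (98% interval -4.41 to -3.91) for Ccna2 to -3.09 (-3.42 to -2.77) for Cdk1. Ccna2 shares 12.5% of its exon bases with Exosc9 on the opposite strand, and whether strand was used in counting is not given in the sources used here.

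Among the mitotic kinases the fall was uneven. Plk1, which matures centrosomes and the spindle, was at 34.2 TPM in BM monocytes, 2.15 TPM in SC monocytes and 3.47 TPM in APCs. Aurkb, the catalytic subunit of the chromosomal passenger complex, was at 58.8, 3.26 and 2.93 TPM. Ttk, which starts checkpoint signalling at unattached kinetochores, was at 12.2, 0.432 and 0.768 TPM, the latter values resting on 21 and 41 reads. These 3 genes were low in both spinal cord libraries, with log2 fold changes between the monocyte libraries from -4.41 for Ttk to -3.63 for Plk1. Aurka, the kinase of the spindle poles, kept more, at 24.1, 5.16 and 5.53 TPM, a log2 fold change of -1.92 (-2.21 to -1.63). Bub1b, the checkpoint protein BubR1, kept the most of the kinase group, at 48.5, 17.6 and 14.8 TPM, and the log2 change was -1.89 (-2.03 to -1.75). Divided by effective length, which was 3355 bases for Bub1b in BM monocytes and 1996 in SC monocytes, that change was -1.24. The intervals of Aurka and Bub1b did not meet those of Plk1, Aurkb, Ttk, Bub1 or Melk, whose log2 fold changes lay between -4.41 and -3.25. With an assumed coefficient of variation of 0.2, neither Aurka nor Bub1b was called, beside 4.57% of all active genes called lower.

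The chromosomal passenger genes besides Aurkb held 12.5% and 15.0% of their bone marrow sum. Birc5, survivin, was at 95.9 TPM in BM monocytes, 7.29 TPM in SC monocytes and 8.53 TPM in APCs, and Cdca8, borealin, was at 61.1, 5.32 and 6.49 TPM. Incenp, the scaffold on which these subunits and Aurkb assemble, was at 61.0, 14.7 and 17.6 TPM. The subunits of the complex were thus not lowered alike on the reads, with log2 fold changes between the monocyte libraries of -3.80 (-4.15 to -3.47) for Aurkb, -3.26 (-3.61 to -2.94) for Birc5, -3.13 (-3.43 to -2.85) for Cdca8 and -2.11 (-2.26 to -1.97) for Incenp.

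The genes of the checkpoint, of the anaphase-promoting complex pathway and of sister chromatid separation held the largest share of the 10 role groups, 20.0% and 21.1%, and in SC monocytes most of that remainder was Pttg1. Pttg1 encodes securin, which blocks separase until anaphase. It was at 36.7 TPM (382 reads) in BM monocytes, 35.6 TPM (331 reads) in SC monocytes and 33.5 TPM (367 reads) in APCs. The 3 levels overlapped within counting error, and the log2 fold change on the reads was 0.25 (98% interval 0.00 to 0.50) between the monocyte libraries and 0.00 (-0.25 to 0.26) between APCs and SC monocytes. Espl1, separase itself, was at 15.9, 5.74 and 4.64 TPM, a log2 fold change of -1.62 (-1.84 to -1.40) between the monocyte libraries. Espl1 was thus called lower where Pttg1 was not, and the intervals of both genes did not meet. Cdc20 and Ube2c, the activator and the ubiquitin-conjugating enzyme of the anaphase-promoting complex, were at 41.3, 3.16 and 3.33 TPM and at 116, 11.2 and 13.7 TPM. Mad2l1, the checkpoint inhibitor of Cdc20, was at 47.3, 5.76 and 4.87 TPM, and the log2 change was -2.66 (-2.92 to -2.41). Cdca3, a ubiquitin ligase adaptor of mitotic entry, was at 54.2, 3.52 and 9.08 TPM, and Esco2, the cohesin acetyltransferase, at 22.7, 1.86 and 1.31 TPM. Ube2c shares 22.8% of its exon bases with Tnnc2 on the opposite strand.

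**Figure D4:**
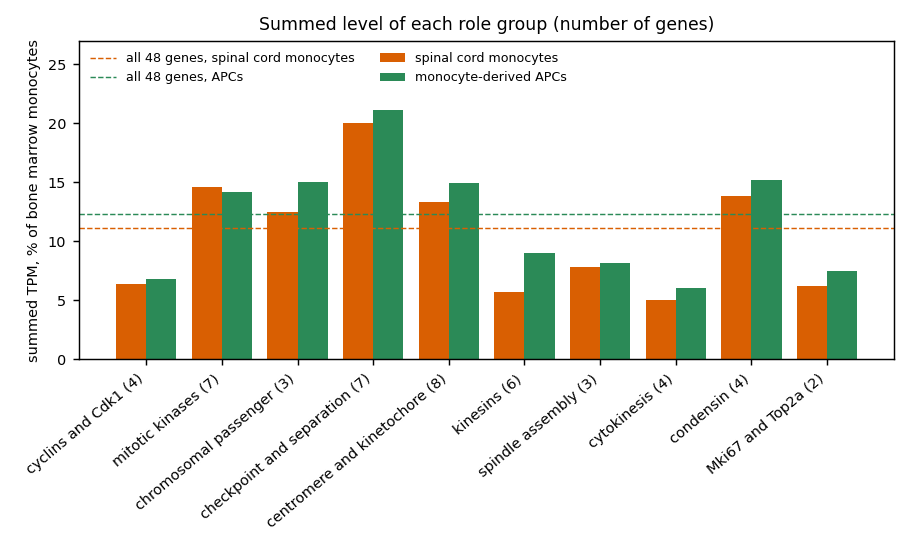
Summed TPM of each of the 10 role groups in SC monocytes (orange) and APCs (green) as a percentage of the same sum in BM monocytes, with the number of genes in brackets and the values of all 48 genes as dashed lines. The bars start at 0 and run from 5.04% for cytokinesis genes to 21.1% for checkpoint and separation genes, with no error bars because each population was 1 library.

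At centromeres and kinetochores, the 8 genes held 13.3% and 14.9% of their bone marrow sum, and in SC monocytes Cenpa made up most of what was left. Cenpa, the histone H3 variant that marks centromeres, was at 98.03 TPM (1806 reads) in BM monocytes, 22.4 TPM (516 reads) in SC monocytes and 14.3 TPM (236 reads) in APCs. Its log2 fold change of -1.35 (-1.52 to -1.18) was, on the reads, the smallest of the 47 genes called lower between the monocyte libraries. Divided by effective length, which was 862 bases in BM monocytes and 1188 in SC monocytes, it was -1.91. The changes of Bub1b (-1.24), Espl1 (-1.25), Smc4 (-1.81) and Incenp (-1.83) were then smaller. The microtubule-binding Ndc80 complex was lower throughout, with Ndc80 at 22.4, 1.88 and 2.93 TPM, Nuf2 at 31.8, 2.10 and 2.80 TPM, and Spc25 at 30.9, 1.53 and 5.22 TPM. Those 3 subunits had log2 fold changes between the monocyte libraries of -3.26, -3.59 and -3.92, with overlapping intervals. Knl1, which recruits the checkpoint proteins to the kinetochore, was at 16.9, 0.718 and 2.04 TPM. Cenpe, a kinetochore motor, was at 13.8, 0.811 and 1.51 TPM, and Cenpf, the gene with the lowest level of the 48 in BM monocytes, at 6.02, 0.405 and 0.538 TPM. Apart from Cenpa, every gene of the group was at or under 2.10 TPM in SC monocytes.

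In SC monocytes, kinesins and cytokinesis genes kept the least of the 10 role groups. The 6 kinesin genes held 5.72% of the bone marrow sum in SC monocytes and 9.04% in APCs. Kif11, the motor that pushes spindle poles apart, was at 51.2 TPM in BM monocytes, 1.97 TPM in SC monocytes and 2.40 TPM in APCs, and its log2 fold change was -4.39 (-4.66 to -4.14). The other kinesins were at 12.1 to 31.6 TPM in BM monocytes and at 0.722 to 2.39 TPM in SC monocytes. Of them, Kif20a shares 29.3% of its exon bases with Cdc23 on the opposite strand, and Kif4 shares 15.1% with Pdzd11. The 4 cytokinesis genes held 5.04% and 6.04%. Anln, which anchors the contractile ring, was at 38.1, 1.05 and 1.15 TPM, and the log2 change of -4.49 (-4.87 to -4.14) was the most negative of the 48, although the intervals of other genes, such as Kif11 and Ttk, overlap it. Racgap1, part of the centralspindlin complex, was at 115, 5.71 and 7.05 TPM, and Ect2, the exchange factor it recruits to switch on RhoA, at 15.6, 0.936 and 1.13 TPM. Prc1, the microtubule bundler of the spindle midzone, was at 49.5, 3.28 and 3.83 TPM, and shares 11.1% of its exon bases with Rccd1 on the opposite strand. For spindle assembly factors the sums were 7.78% and 8.17%, with Tpx2, an activator of Aurka, at 38.8, 2.79 and 4.47 TPM, and with Nusap1 at 50.6, 4.58 and 2.75 TPM.

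Of the condensin genes, which held 13.8% and 15.2% of their bone marrow sum, Smc4 stood apart. Smc4 was at 104.5 TPM in BM monocytes, 25.5 TPM in SC monocytes and 23.7 TPM in APCs, whereas Smc2, with which it forms the core dimer, was at 43.6, 3.61 and 5.45 TPM. The log2 fold changes between the monocyte libraries, -2.01 (-2.11 to -1.91) for Smc4 and -3.21 (-3.40 to -3.03) for Smc2, had intervals that did not meet. The condensin I subunits Ncapd2 and Ncapg were at 84.8, 4.98 and 8.30 TPM and at 21.1, 0.945 and 1.14 TPM. Ncapg shares 13.4% of its exon bases with Lcorl on the opposite strand. Mki67, which coats mitotic chromosomes and is the source of the Ki-67 antigen, was at 92.9, 8.59 and 12.6 TPM, from 19307, 1629 and 2574 reads. Top2a, the topoisomerase that untangles sister chromatids, was at 189.7, 8.92 and 8.46 TPM. Both were called lower in SC monocytes, with log2 fold changes of -3.11 (-3.19 to -3.02) for Mki67 and -4.02 (-4.15 to -3.89) for Top2a, whose intervals did not meet.

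The make-up of the mitotic transcripts differed between the tissues as well as their amount. In BM monocytes the 5 most abundant of the 48 genes, Top2a, Ube2c, Racgap1, Smc4 and Cenpa, held 26.9% of the summed TPM. In SC monocytes the 5 were Pttg1, Smc4, Cenpa, Bub1b and Incenp, which held 45.2%, and in APCs the same 5 genes held 36.6%. Across the 48 genes, log2(TPM + 1) in bone marrow and SC monocytes had a Pearson r of 0.74 and a Spearman rho of 0.83, and in SC monocytes and APCs an r of 0.93 and a rho of 0.89. These correlations are across genes, which are not independent replicates, and the pairs share the spinal cord monocyte library.

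Few of these genes were called different between monocyte-derived APCs and SC monocytes. Of the 48 genes, 30 were active in that comparison, 1 was called lower (Cenpa) and 0 were called higher, where 1.66% of the 9734 active genes were called lower and 1.94% higher. Cenpa had a log2 fold change on the reads of -1.27 (-1.54 to -1.01), and of -0.57 once reads were divided by effective length, which was 1188 bases in SC monocytes and 792 in APCs, so that it was then not called. The remaining genes leaned slightly higher in APCs. The median log2 fold change was 0.34 over the 48 genes and -0.03 over all active genes, and it was above 0 for 27 of the 30 active mitotic genes (43 of all 48), against 47.4% of all active genes. The 98% interval lay wholly above 0 for 15 of the 30 and below 0 for 1, where 29.3% and 35.7% of all active genes had such intervals. Divided by effective length, the median over the 48 genes was 0.37 and 20 of the 30 active ones were above 0, against 47.9% of all active genes. Mki67 was among the genes with an interval above 0, at 0.51 (0.41 to 0.62), and its effective length was nearly equal in the libraries (9785 and 9811 bases).

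Among genes that were not called, Spc25 had a log2 fold change of 1.33 (0.68 to 2.03) between APCs and SC monocytes from 33 and 93 reads, and Kif2c, a microtubule depolymerase, of 1.04 (0.54 to 1.57) at levels under 3 TPM in both libraries, so that it was not active. Cenpk, at 0.811 TPM in SC monocytes and 5.001 TPM in APCs, had 0.91 (-0.06 to 1.96) on 16 and 34 reads and 2.68 once divided by its effective lengths of 1022 and 326 bases. Espl1 went the other way, at 0.98 (0.74 to 1.22) on the reads and -0.23 by length, with effective lengths of 2543 and 6399 bases. For Cdca3, Cenpk and Spc25 the division by length made a higher call, beside 2.38% of all active genes. Bub1b, at 0.48 on the reads and -0.18 by length, changed direction like Espl1, with effective lengths of 1996 and 3418 bases. So did Nusap1 (0.19 and -0.66), Mad2l1 (0.19 and -0.17), Smc4 (0.26 and -0.03), Cdk1 (0.33 and -0.01) and Pttg1 (0.00 and -0.01). Espl1, Bub1b and Smc4 were among the genes with an interval above 0 on the reads. Mki67, Plk1, Tpx2 and Ncapd2 kept their direction. Plk1 was at 0.67 on the reads and 0.77 by length, Tpx2 at 0.65 and 0.76, and Ncapd2 at 0.59 and 0.81.

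APCs were also set against BM monocytes directly, a comparison that shares its libraries with the other two. Called lower were 46 of the 48 genes and called higher 0, beside 11.7% and 14.0% of 10190 active genes. The median log2 fold change was -3.05. The genes not called were Pttg1, at 0.27, and Espl1, at -0.62 on the reads with 29.2% of the bone marrow TPM left. Division by effective length made Espl1 a lower call, at -1.44, and ended that of Cenpk, at -1.84 on the reads and -0.83 by length. With an assumed coefficient of variation of 0.4, 28 genes were called lower, beside 2.26% of all active genes.

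Other genes of the cell division pathway were taken from 8 lists that do not overlap the 48 genes, and their counts stand beside the 11.0% of all active genes called lower and 13.6% called higher in SC monocytes. Of 32 further kinetochore and centromere genes, 24 were called lower in SC monocytes and 0 higher, with a median log2 fold change of -2.20. Sgo2a, a shugoshin that guards centromeric cohesion, had the largest change, -4.11, whereas Bub3, a checkpoint protein and the most abundant of the list, was at 77.5 TPM in BM monocytes and 36.5 TPM in SC monocytes and was not called. Of 32 further spindle, motor and cytokinesis genes, 24 were called lower and 0 higher, with a median of -3.05. Stmn1, the microtubule destabilizer stathmin, was the most abundant of them, at 397 TPM in BM monocytes, 33.1 TPM in SC monocytes and 44.3 TPM in APCs. Of 21 further mitotic kinases, phosphatases and entry regulators, 17 were called lower and 0 higher, with a median of -2.47. Arpp19, Ube2s and Cks2, the most abundant of that list, were not called, with log2 fold changes of 0.11, -0.16 and -0.19.

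Other condensin and cohesin genes showed a smaller difference, with 8 of 14 called lower, 0 higher and a median of -1.28. The division-specific Ncaph, of condensin I, had the largest change (-3.90), while the cohesin subunit Rad21, which also works in interphase, was at 135 TPM in BM monocytes and 37.5 TPM in SC monocytes (-1.54). Of 15 subunits of the anaphase-promoting complex, 1 was called lower (Cdc23, -1.73), which is no more than the 11.0% of all active genes, 0 were called higher and the median was -0.59. Cdc23 is the gene that shares exon bases with Kif20a on the opposite strand. Anapc5, the most abundant of these subunits, was at 171 TPM in BM monocytes, 69.4 TPM in SC monocytes and 70.5 TPM in APCs.

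**Figure D5:**
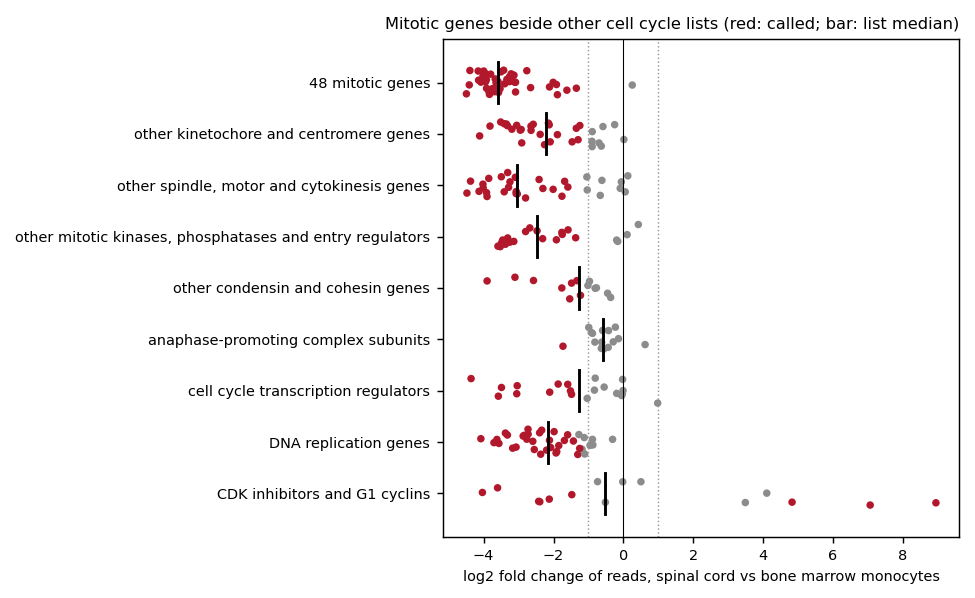
Log2 fold change of reads in SC monocytes against BM monocytes for the 48 mitotic genes and for the genes of 8 other cell division lists, each point a gene (spread vertically at random within its list), called genes in red and list medians as black bars. The medians are over all genes of each list and run from -3.58 for the mitotic genes to -0.52 for CDK inhibitors and G1 cyclins. The anaphase-promoting complex subunits have a median of -0.59. CDK inhibitors and G1 cyclins are the list with called genes on both sides, and the median over the 12 active of these 15 genes is -1.11.

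DNA replication genes, which act in S phase, were called lower in 30 of 38 cases and higher in 0, with a median of -2.16. Rrm2, a ribonucleotide reductase subunit, was at 117 TPM in BM monocytes, 5.72 TPM in SC monocytes and 6.17 TPM in APCs. Pcna, the replication clamp, was at 288, 195 and 148 TPM and was not called. Of 20 transcription regulators of the cell cycle, 10 were called lower and 0 higher, with a median of -1.26. E2f7, an E2F repressor, had the largest change (-4.36). Foxm1, the activator of many G2 and M phase genes, was at 30.7, 2.83 and 2.07 TPM, a log2 fold change of -3.49 between the monocyte libraries. Its partner Mybl2 (-3.04) and some of the MuvB subunits, Lin9 (-0.83), Lin37 (-0.05), Lin52 (-0.19) and Lin54 (-0.02), were named after their values were seen. Of these, Mybl2 was called lower, and the MuvB complex was not covered in full.

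Genes of the G1 cyclins and cyclin-dependent kinase inhibitors were called in both directions, with 6 of 15 genes (12 of them active) called lower and 3 called higher in SC monocytes, beside 11.0% and 13.6% of all active genes. Cdkn1a, the inhibitor p21, was at 26.9 TPM in BM monocytes, 612 TPM in SC monocytes and 452 TPM in APCs, and its log2 fold change was 4.83 (4.71 to 4.94). Ccnd2, cyclin D2, was at 0.249, 17.9 and 30.4 TPM, and Ccnd1, cyclin D1, at 0.0269, 14.4 and 22.0 TPM. The ratio for Ccnd1 rests on 2 reads in BM monocytes, and its log2 interval ran from 7.29 to 11.56. Ccnd3, cyclin D3, went the other way, at 325.5, 48.1 and 44.1 TPM. Cyclin D3 was thus called lower where cyclins D1 and D2 were called higher. In APCs against SC monocytes, 0 genes were called in either direction in any of the 8 lists, where 1.66% and 1.94% of all active genes were called, so that few or no calls in lists of this size are near the background.

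Markers of other cell types were summed beside these results. The 8 monocyte markers were each over 3 TPM in all 3 libraries. The 11 listed markers of granulocyte and monocyte progenitors summed to 679.5 TPM in BM monocytes, 92.2 TPM in SC monocytes and 81.8 TPM in APCs, with 8, 5 and 4 of them over 3 TPM and none at 0. In SC monocytes 7 of them were called lower and 2, Cd34 and Sox4, were called higher. Elane, the neutrophil elastase gene expressed in such progenitors, was at 172, 3.497 and 0.849 TPM, and Mpo at 69.6, 1.85 and 1.27 TPM. Other progenitor genes went the opposite way, with Cd34 at 3.03, 12.5 and 35.7 TPM, and with Kit at 0.208, 1.70 and 6.92 TPM and Sox4 at 0.722, 5.80 and 12.4 TPM, the latter pair named after their values were seen. The 10 neutrophil markers summed to 8752, 1353 and 1435 TPM, with 7, 9 and 9 of them over 3 TPM. S100a8 (4471 TPM) and S100a9 (2244 TPM) made up most of the BM sum. In SC monocytes 7 of the 10 were called lower and 2, Retnlg and Cxcr2, were called higher. Ly6g, the marker used to exclude neutrophils in the sort, was at 2.57, 1.71 and 1.64 TPM and was not active. Retnlg, Cxcr2 and Ly6g were named after their values were seen. The part of progenitors or neutrophils in the result was not tested.

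T cell and natural killer cell markers were lowest in the BM library. The 11 T cell markers summed to 0.882 TPM in BM monocytes, 98.1 TPM in SC monocytes and 160.8 TPM in APCs, with 0, 9 and 10 of them over 3 TPM, and Cd3g, Cd4, Cd8b1 and Trac had 0 reads in BM monocytes. The 6 natural killer cell markers summed to 0.227, 5.39 and 23.5 TPM, with 0, 0 and 2 of them over 3 TPM, Ncr1 at 0 reads in both monocyte libraries and Gzma and Prf1 in BM monocytes. The T cell and natural killer sums were thus highest in APCs, and so were the microglia and dendritic cell sums given below. In that library the mitotic genes leaned higher than in SC monocytes. Klrd1 held 15.5 TPM of the natural killer sum in APCs. Klrb1c was lower in APCs (0.341 TPM) than in SC monocytes (0.655 TPM), whereas 5 of the 6 natural killer markers had a log2 fold change above 0. Il7r held 55.3 TPM of the T cell sum in APCs. The authors list Il7r among the receptor genes induced in the spinal cord populations. Erythroid markers summed to 7.88, 162.6 and 60.0 TPM, with 1, 5 and 4 of 8 over 3 TPM, and Hba-a1, Klf1 and Alas2 at 0 reads in BM monocytes. Microglia markers summed to 225.7, 498 and 981 TPM, with 2, 7 and 7 of 7 over 3 TPM and Sall1 at 0 reads in BM monocytes. The 7 dendritic cell markers summed to 40.9, 24.8 and 128 TPM, with 1, 4 and 6 of them over 3 TPM, and single genes carried these sums, Flt3 with 37.8 TPM in BM monocytes and Ccr7 with 99.7 TPM in APCs. The 7 B and plasma cell markers summed to 9.37, 3.69 and 3.87 TPM, highest in BM monocytes, with 1, 0 and 1 over 3 TPM, Pax5 at 0 reads in BM monocytes and Mzb1 there and in APCs. The part of these cells in the mitotic transcripts of the spinal cord libraries was not tested.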

How the data were processed

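RNA of 3 sorted populations was sequenced as 1 pooled library each. The authors estimated expression with SALMON (Salmon 0.14.1 and mm10 in the submitters' processing notes) on GENCODE vM22, pooling transcripts by gene. The deposited TPM values carry the normalization of the authors for transcript length and depth. The deposited estimated counts were left raw by the authors, with fractions of reads, and stand beside the effective lengths. The populations were grouped by the labels, and the transcript set of the APC library is not given in the sources used here.

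TPM was rescaled over the 22238 common genes, which held 84.9%, 85.3% and 100.0% of the TPM of BM monocytes, SC monocytes and APCs. Estimated counts were rounded to whole reads and divided by size factors (median of ratios) of the pair compared. The authors' definition of differential expression by GFold was followed, but GFold itself was not run. Calls used percentiles 1 and 99 of the log2 ratio of gamma distributions of reads plus 1, reading the TPM threshold as 3. In SC against BM monocytes more active genes were called higher (1369) than lower (1104), whereas the paper reports more genes down than up. With 1 library per population no test of the conditions was possible. The calculation was tested on simulated data with known changes. Those data had counting error only, so they did not cover variation between libraries or differences in transcript set or effective length. Symbols and coordinates came from GENCODE M21 (same identifier and version for 48 of the 48 genes) and promoters from RefSeq (GRCm38.p6), with 7 of the 48 genes not matched.

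The 48 genes, their 10 role groups, the 8 pathway lists and the 9 marker lists were chosen with earlier results of these data known. Every one of the 48 genes could be named. Of each pathway list, the 3 genes with the highest TPM and the 3 called genes with the largest change in each direction could be named, and of each marker list the 3 genes with the highest TPM and those at 0 reads. Some genes of the marker lists are not reported here by name. Alternatives were total reads or TMM factors, division of reads by effective length, a bound at 0.001, an assumed variation between libraries of 0.2 or 0.4, a plain 2-fold change, 0.5 reads added, a TPM threshold of 4 or none, all genes of the monocyte libraries, and pseudocounts of 1 or 0.1 on TPM. Python 3.11.15 was used with scipy 1.17.1, numpy 2.4.6, matplotlib 3.10.9 and pandas 2.3.3, and R 4.3.3 with edgeR 4.0.16 for the TMM factors only.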

Additional observations from a re-analysis of the deposited data

How the results depend on the processing

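In SC against BM monocytes, 47 genes were called lower under every alternative run, except 43 with an assumed coefficient of variation of 0.2 and 39 with 0.4, and the median log2 fold change ran from -3.80 to -3.28. With 0.2, Aurka, Bub1b, Espl1 and Cenpa were not called, and with 0.4 Incenp, Mad2l1, Cenpk and Smc4 were lost as well. In APCs against BM monocytes, the count called lower was 28 with 0.4 in place of 46, and the summed TPM ratio was 0.145 both for TPM as deposited (0.1445) and for summed scaled reads (0.1449) in place of 0.123. In APCs against SC monocytes, the 1 gene called lower became 0 with total reads, effective length, either coefficient of variation, the bound at 0.001 and both TPM pseudocounts. The 0 genes called higher became 3 with effective length and both TPM pseudocounts, and 1 with a plain 2-fold change. The summed TPM ratio at this step was 1.11, against 1.30 for TPM as deposited and 1.28 for summed scaled reads. No direction of a called value reversed in any alternative run. The cause of these differences was not tested. No paired analysis was possible because each population was 1 library, and no library could be left out. Total reads shifted the median of all active genes by -0.16, 0.04 and -0.14 (log2), and effective length by -0.10, 0.12 and 0.04, in the order SC against BM monocytes, APCs against SC monocytes and APCs against BM monocytes. Genes under about 20 reads, such as Cenpk, had the widest intervals.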
